A study of Homo sapiens with 18 samples.

Results

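The DNAJ proteins are the J-domain co-chaperones of HSP70. The members described here are the genes of the fraction table (cytoplasmic and polysomal RNA) whose symbol is DNAJA, DNAJB or DNAJC followed by a number, and they were found by that pattern alone. The rule gave 39 of 15747 genes, namely 4 DNAJA, 9 DNAJB and 26 DNAJC members, and all 39 symbols also had reads in the whole-cell table of 44682 genes. By the known site of the protein, 17 were placed in cytosol and nucleus, 3 on vesicles and endosomes, 10 in the ER and 5 in mitochondria, and 4 were left unassigned.

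DU145 is a line from a metastatic prostate carcinoma, and GC7 inhibits deoxyhypusine synthase, the enzyme that starts the hypusine modification of the translation factor eIF5A. Cells received 40 µM GC7 for 24 h, or vehicle for the same time. RNA was taken from whole cells, from cytoplasm cleared of nuclei and mitochondria, and from heavy polysomes parted on sucrose gradients, with 3 libraries in each of the 6 groups. Each set of RNA was compared as GC7 against vehicle. Per the labels' protocol, which is the same text for all groups, the gradient cells of both treatments were given emetine, which holds ribosomes on mRNA, before lysis.

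A J domain contacts HSP70 and makes it hydrolyse ATP, which closes HSP70 on its substrate. The contact needs a histidine, proline and aspartate signature, and the rest of each protein decides where it sits and which substrate it brings. DNAJA and DNAJB members mostly bind unfolded chains themselves, whereas many DNAJC members tie HSP70 to 1 task, such as the ribosome, clathrin coats, ER-associated degradation or import into mitochondria. Several cytosolic members are induced by heat shock factors, and several ER members by the unfolded protein response.

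Every member carries this signature. All 39 coding sequences hold the codons for histidine, proline and aspartate in frame exactly once, whereas 6.11% of the 12849 measured genes with a coding sequence hold them at all. The stretches below show 17 codons around the signature in members that the results turn on, from the GENCODE 44 transcripts on GRCh38, with the signature codons in capitals.

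DNAJC10, codons 56 to 72: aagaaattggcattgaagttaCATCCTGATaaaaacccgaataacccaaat
DNAJB9, codons 47 to 63: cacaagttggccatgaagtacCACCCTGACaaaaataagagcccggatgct
DNAJB1, codons 25 to 41: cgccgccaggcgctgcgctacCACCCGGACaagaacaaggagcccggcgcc
DNAJC9, codons 36 to 52: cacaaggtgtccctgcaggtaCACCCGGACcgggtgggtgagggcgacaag
DNAJC2, codons 112 to 128: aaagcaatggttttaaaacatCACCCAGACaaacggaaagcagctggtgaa
DNAJC11, codons 35 to 51: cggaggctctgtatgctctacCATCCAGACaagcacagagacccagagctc
DNAJC19, codons 83 to 99: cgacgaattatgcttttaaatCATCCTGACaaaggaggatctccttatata
DNAJC22, codons 298 to 314: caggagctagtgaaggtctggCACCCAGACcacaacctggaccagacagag

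The place of the signature overlapped between the 3 classes and was most spread in DNAJC members. Its first codon lay at codon 34 to 121 (median 35) in DNAJA members, at 31 to 138 (median 53) in DNAJB members and at 31 to 1332 (median 82) in DNAJC members. The extreme is DNAJC13, an endosomal protein whose J domain lies in the middle of a coding sequence of 6732 bases. The J domain of DNAJC22 sits near its C terminus, with the signature at codon 305 of 341.

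The tables hold the authors' comparisons and no values of single libraries, so values per library, SDs and depths cannot be shown. Nothing in the labels tells if the 3 libraries of a group are separate cultures, and p-values then reflect only library-to-library spread, which may be technical. Neither table names its numerator: positive is read here as higher with GC7, the whole-cell sign was reversed to match the fractions, and on the opposite reading every direction below turns round. The check of cell identity found all 5 epithelial markers in the fraction table, and 1 of 4 fibroblast and 1 of 4 leukocyte markers. Of the leukocyte list CD68 was listed and PTPRC, CD3E and LYZ were not. EPCAM (0.59) and CD68 (0.45) were called higher in polysomes by the authors' deposited table, and their part in the results was not tested. In bulk RNA, a change in every cell and a change in some of the cells cannot be told apart.

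Few members changed with GC7, at shares near or below those of all genes. In polysomes DNAJC10, an ER disulfide reductase, rose 1.76-fold, and 3 members fell: DNAJB1, the main heat-inducible HSP40, DNAJC9, a histone chaperone, and the membrane protein DNAJC22. In cytoplasm DNAJC11, a mitochondrial inner membrane organiser, fell to 0.582 of its vehicle level. Both sizes are unshrunken, that is, computed back from fold changes that the authors had shrunken towards 0. In whole cells DNAJC2, which sits on the ribosome, had the only unadjusted p under 0.05 and was lower with GC7.

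In polysomes 4 of 39 members, 10.3%, passed an adjusted p of 0.05 (authors' deposited table), where 11.1% of all genes did. They split into 1 higher and 3 lower, where 5.61% of all genes were higher and 5.48% lower. In cytoplasm 1 of 39 members, 2.56%, was past that threshold, against 4.24% of all genes in the authors' deposited table, and it was lower, as 1.95% of all genes were. In whole cells 1 of 39, 2.56%, had an unadjusted p under 0.05 and was lower, against 3.11% in either direction and 1.04% lower of the 14103 genes that both tables hold. After Benjamini-Hochberg adjustment over all 44682 genes, 0 members and 0 genes in whole cells were past 0.05, and the smallest adjusted p of any gene was 0.642. At an unadjusted p under 0.05, 9 members (8 of them lower) stood out in cytoplasm and 8 (5 of them lower) in polysomes. In cytoplasm those 9 were 23.1% of the members, where 15.4% of all genes had such a p and 8.13% were lower with one. In polysomes the 8 were 20.5%, where 23.3% of all genes had such a p and 12.1% were lower with one. The cytoplasmic share of lower members at this looser threshold, 8 of 39, was above that of all genes, and it was not tested as a list. No member carries the authors' category of change, which needs a log2 fold change over 1 in size.

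**Figure D1:**
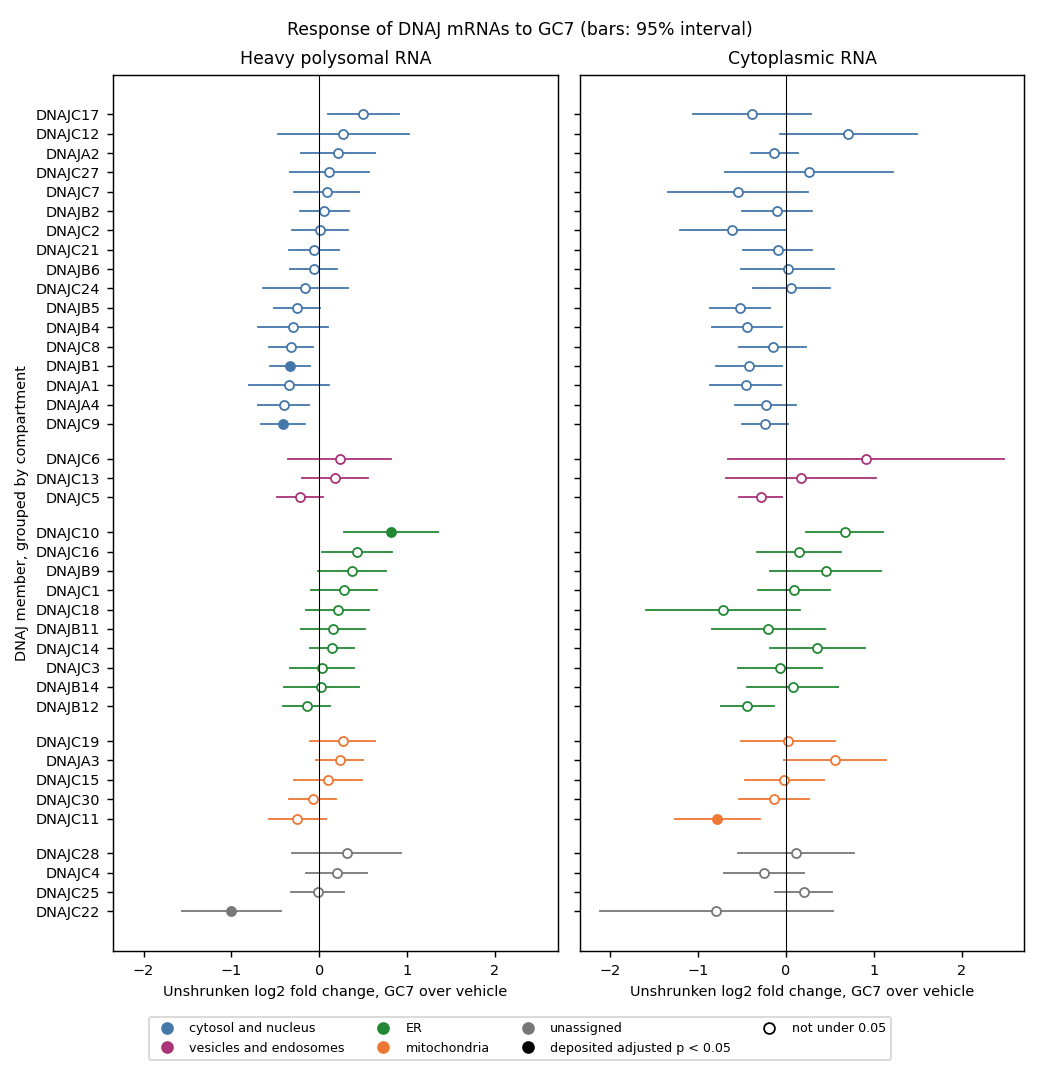
Unshrunken log2 fold change of each DNAJ mRNA, GC7 over vehicle, in heavy polysomal RNA (left) and cytoplasmic RNA (right), with its 95% interval, grouped by compartment. Filled points have a deposited adjusted p under 0.05: DNAJC10, DNAJC9, DNAJB1 and DNAJC22 in polysomes and DNAJC11 in cytoplasm, while the intervals of 31 members in polysomes and 30 in cytoplasm span 0.

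The fold changes of the fractions were shrunken towards 0 by the authors. Unshrunken values, computed back from them, are given below with their SE for single genes, and medians are of values as deposited. The unshrunken SE had a median of 0.186 in polysomes (0.116 to 0.38) and of 0.244 in cytoplasm (0.126 to 0.803), and 34 of the 39 members had the larger SE in cytoplasm. A change in cytoplasm therefore had to be larger to be called.

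The cytosolic and nuclear members were more often below 0 than above it in each comparison, most of all in cytoplasm. Of the 17, 10 were negative in polysomes, 13 in cytoplasm and 12 in whole cells (authors' deposited table). Their medians there were -0.05, -0.11 and -0.25 (log2) in that order, where the medians of all genes were 0.00, 0.00 and -0.03 and 51.5%, 51.3% and 53.1% of all genes were negative. The 6 that were negative in all 3 comparisons were DNAJA1, DNAJB1, DNAJB4, DNAJB5, DNAJC9 and DNAJC21. DNAJC12, which assists aromatic amino acid hydroxylases, was the 1 cytosolic member positive in all 3.

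DNAJB1 is the heat-inducible partner of the cytosolic HSP70s and had the highest level of all members per length. Its mean normalized count per kilobase of transcript was 3834 in polysomes and 2458 in cytoplasm, where DNAJC8 came close at 2440 and the spread between libraries is not known. Its unshrunken polysomal log2 change was -0.33 (SE 0.12), with an adjusted p of 0.0443 in the authors' deposited table. In cytoplasm the unshrunken change was of like size, -0.42 (SE 0.19), with an adjusted p of 0.245 in the authors' deposited table. In whole cells the authors' deposited table gives -0.27 after sign reversal and a p of 0.509. All 3 estimates were below 0, and the polysomal one, which passed, had the smaller SE of the 2 fractions. The gene spans 14514769 to 14560391 on the minus strand of chromosome 19 (GRCh38).

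The relatives of DNAJB1 gave the same sign without passing. DNAJB4 and DNAJB5 share its domain layout. The unshrunken log2 changes of DNAJB4 were -0.30 (SE 0.20) in polysomes and -0.45 (SE 0.20) in cytoplasm. Those of DNAJB5 were -0.26 (SE 0.13) in polysomes and -0.52 (SE 0.17) in cytoplasm. DNAJB5 came closest of the cytosolic members in cytoplasm, with an adjusted p of 0.0569 in the authors' deposited table, and had the lowest cytoplasmic value of the class as deposited, -0.42. DNAJB6, which keeps polyglutamine proteins from aggregating, stayed near 0, with -0.07 (SE 0.14) in polysomes and 0.02 (SE 0.27) in cytoplasm. DNAJB2, a ubiquitin-binding member best known from neurons, was also near 0, with 0.06 (SE 0.14) in polysomes.

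The cytosolic DNAJA members carry zinc-binding repeats and help HSP70 fold and refold chains. The codons of that cysteine repeat occur 3 or 4 times in each of the 4 DNAJA members, the mitochondrial DNAJA3 included, and in none of the other members. DNAJA1 had the lowest whole-cell value of all members, -1.28 (authors' deposited table, sign reversed), yet its p there was 0.256. The unshrunken log2 change of DNAJA1 was -0.35 (SE 0.23) in polysomes and -0.46 (95% interval -0.86 to -0.06) in cytoplasm, where its adjusted p of 0.229 in the authors' deposited table did not pass. DNAJA4 lay just outside the threshold in polysomes, at -0.41 (SE 0.15) unshrunken with an adjusted p of 0.0564 in the authors' deposited table, and had -0.23 (SE 0.18) in cytoplasm. DNAJA2 differed in sign, with 0.21 (SE 0.21) in polysomes and -0.14 (SE 0.14) in cytoplasm. All 3 cytosolic DNAJA estimates were below 0 in cytoplasm and 2 of the 3 in polysomes, with none called.

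Members with tasks in the nucleus included 1 that fell. DNAJC9 hands histones H3 and H4 to HSP70 during chromatin assembly. Its unshrunken polysomal log2 change was -0.41 (SE 0.13), 0.752 of the vehicle level, with an adjusted p of 0.0189 in the authors' deposited table. The gene spans 73183362 to 73247255 on the minus strand of chromosome 10. In cytoplasm DNAJC9 had -0.24 (SE 0.14), with an adjusted p of 0.397 in the authors' deposited table. DNAJC8, a spliceosome-associated member, had -0.33 (SE 0.13) in polysomes and an adjusted p of 0.0822 in the authors' deposited table. DNAJC17, also linked to splicing, went the other way in polysomes, where it was the highest cytosolic or nuclear member at 0.50 (SE 0.21), with an adjusted p of 0.104 in the authors' deposited table.

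The members tied to the ribosome and to translation factors were mostly flat on polysomes. DNAJC2 forms the ribosome-associated complex with the HSP70 relative HSPA14 at the exit of the nascent chain. In whole cells it was lower with GC7 at -1.15 and an unadjusted p of 0.0395 (authors' deposited table, sign reversed). Its unshrunken log2 change was 0.01 (SE 0.17) in polysomes and -0.61 (SE 0.30) in cytoplasm. The gene spans 103312289 to 103344830 on the minus strand of chromosome 7. DNAJC21, needed for maturation of the large ribosomal subunit, had -0.06 (SE 0.15) in polysomes and -0.09 (SE 0.20) in cytoplasm. DNAJC24 takes part in the diphthamide modification of elongation factor eEF2, and had -0.16 (SE 0.25) in polysomes. DNAJC7, which passes clients between HSP70 and HSP90, had 0.08 (SE 0.19) in polysomes and -0.55 (SE 0.41) in cytoplasm.

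The remaining cytosolic members were rare mRNAs. DNAJC12 had the highest value of the class in whole cells, 0.38 with a p of 0.449, and in cytoplasm, 0.19 with an adjusted p of 0.392, in the authors' deposited table. Its mean normalized count was 35.1 in polysomes and 27.5 in cytoplasm, and the unshrunken cytoplasmic interval ran from -0.07 to 1.49. DNAJC27, a small Rab-like GTPase with a J domain, had 0.11 (SE 0.23) in polysomes and 0.26 (SE 0.49) in cytoplasm.

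The 3 vesicle and endosome members did not pass in any comparison. DNAJC5, the cysteine string protein of secretory vesicles, was the lowest of them in both fractions, with -0.22 (SE 0.13) in polysomes and -0.29 (SE 0.13) in cytoplasm unshrunken. DNAJC6, the clathrin-uncoating auxilin, had the lowest level per length of all members, at 12.6 in polysomes and 3.98 in cytoplasm per kilobase. Its unshrunken change was 0.23 (SE 0.30) in polysomes, and 0.91 in cytoplasm with an SE of 0.80, the largest of all members. Both intervals span 0. DNAJC13, which sorts endosomal cargo, was the highest of these as deposited in polysomes, at 0.17 (SE 0.19) unshrunken. It also had the lowest whole-cell value of these 3, -0.62 with a p of 0.289 (authors' deposited table, sign reversed). DNAJC5 had the highest, -0.05 with a p of 0.929 (authors' deposited table, sign reversed).

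The 10 ER members lay mostly above 0 on polysomes, but only DNAJC10 passed. Of the 10, 9 had a positive polysomal value (authors' deposited table), with a median of 0.12, against 7 of the 17 cytosolic members and a median of 0.00 over all genes. In polysomes 51.5% of all genes were negative. Only 6 of the 10 ER members were positive in cytoplasm, and 4 in whole cells. The ER medians were 0.04 in cytoplasm and -0.03 in whole cells in the authors' deposited table. DNAJC10, DNAJC16 and DNAJB9 were positive in all 3 comparisons, and 0 ER members were negative in all 3. The difference between the compartments was not tested, because the members were chosen with results known.

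DNAJC10 reduces wrong disulfide bonds so that misfolded glycoproteins can leave the ER, and it works with the ER HSP70 HSPA5. Its unshrunken polysomal log2 change of 0.82 (SE 0.27) was the highest of all members, with an adjusted p of 0.0300 in the authors' deposited table. In cytoplasm it was 0.67 (SE 0.22), with an adjusted p of 0.0591 in the authors' deposited table, just outside the threshold. In whole cells the authors' deposited table gives 0.05 with a p of 0.945. The gene lies at chromosome 2, 182716255 to 182794464, on the plus strand (GRCh38).

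DNAJB9, DNAJB11 and DNAJC3, among the ER members known as targets of the unfolded protein response, did not pass in either fraction. DNAJB9, a feedback inhibitor of the stress sensor IRE1, had 0.37 in polysomes (95% interval -0.02 to 0.76) and 0.45 (-0.18 to 1.08) in cytoplasm. DNAJB11, a soluble HSPA5 partner that binds nascent secretory proteins, had 0.16 (-0.21 to 0.52) in polysomes and -0.20 (-0.84 to 0.44) in cytoplasm. DNAJC3, an HSPA5 partner also known as a PERK inhibitor, had 0.03 (-0.33 to 0.39) in polysomes and -0.07 (-0.55 to 0.41) in cytoplasm. These intervals leave room for rises in each of them, with polysomal upper limits of 0.76, 0.52 and 0.39 in that order.

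The transcription factors of ER stress did not all go one way in the fractions. By the adjusted p of the authors' deposited table, 4 of 5 were higher and 1 lower in polysomes, and 3 of 5 were higher in cytoplasm. Of all genes, 5.61% were called higher and 5.48% lower in polysomes, and 4.24% in either direction in cytoplasm. These 5 were not tested as a list. DDIT3, a pro-apoptotic factor of prolonged ER stress, had deposited log2 changes of 1.90 in polysomes (adjusted p 1.31e-22) and 1.86 in cytoplasm (adjusted p 2.06e-19) in the authors' deposited table. ATF3, a stress-induced factor, had 0.99 in polysomes and 1.12 in cytoplasm (authors' deposited table). ATF6, an ER stress sensor, had 1.02 in polysomes and 0.95 in cytoplasm (authors' deposited table). XBP1 was called higher in polysomes, at 0.33 (adjusted p 0.0282), and ATF4 was lower in polysomes at -0.37 (adjusted p 0.0200) in the authors' deposited table. In whole cells DDIT3 had 2.21 with an unadjusted p of 0.000507, and ATF3 1.76 with 0.00389 (authors' deposited table, sign reversed). All 5 were positive there, ATF4 at 0.86 with an unadjusted p of 0.118 (authors' deposited table, sign reversed).

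The membrane-bound ER members differed among themselves. DNAJB12, which recruits HSP70 for degradation of membrane proteins, was the lowest ER member in polysomes at -0.14 (SE 0.14) and had -0.44 (SE 0.16) in cytoplasm, with a cytoplasmic adjusted p of 0.0857 in the authors' deposited table. Its partner DNAJB14 had 0.02 (SE 0.22) in polysomes and 0.08 (SE 0.26) in cytoplasm. DNAJC1, a ribosome-contacting membrane protein, was the lowest ER member in whole cells, -0.96 with a p of 0.166 (authors' deposited table, sign reversed). On polysomes the same gene had 0.28 (SE 0.19). DNAJC16 had 0.43 (SE 0.20) in polysomes, with an adjusted p of 0.172 in the authors' deposited table. DNAJC14 had 0.14 (SE 0.13) and DNAJC18 0.21 (SE 0.18) in polysomes. The highest ER member in whole cells was DNAJB9, at 0.33 with a p of 0.730 in the authors' deposited table.

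**Figure D2:**
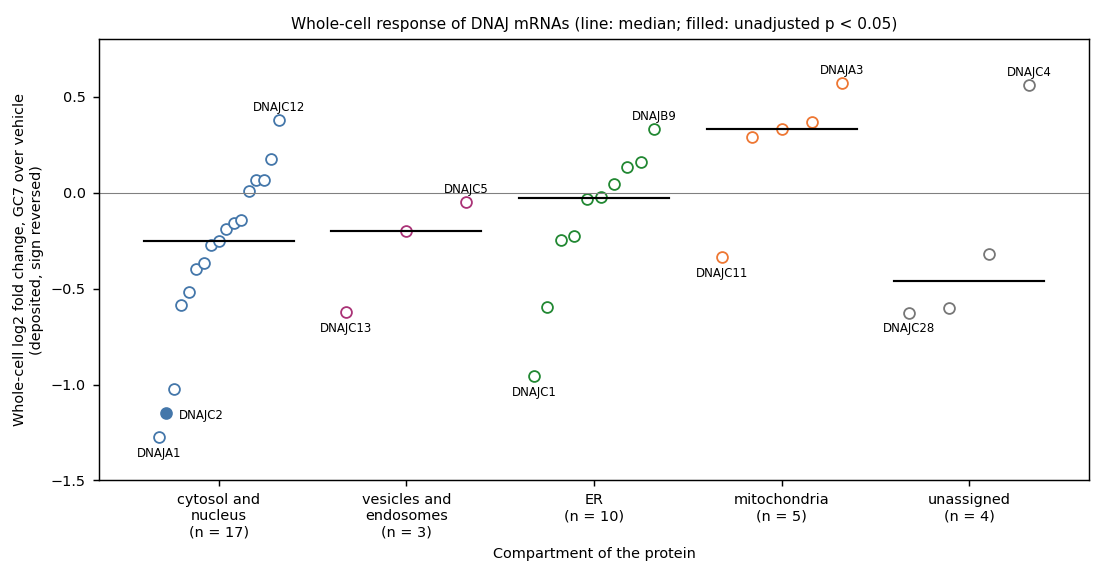
Whole-cell log2 fold change of the DNAJ mRNAs, GC7 over vehicle, as deposited with the sign reversed, by compartment of the protein; each point is 1 gene, lines are medians, and the filled point has an unadjusted p under 0.05. The median was -0.25 in cytosol and nucleus, -0.03 in the ER and 0.33 in mitochondria, and DNAJC2 was the 1 member past 0.05.

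The 5 mitochondrial members are coded in the nucleus and split in direction. In whole cells 4 of them were positive, with a median of 0.33, and DNAJC11 was negative at -0.34 (authors' deposited table, sign reversed). None of the 5 had a whole-cell p under 0.05, and the smallest, 0.367, belonged to DNAJA3. The medians in the fractions were 0.05 in polysomes and -0.01 in cytoplasm in the authors' deposited table.

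DNAJC11 joins the complex that shapes mitochondrial cristae. Its unshrunken cytoplasmic log2 change was -0.78 (SE 0.25), with an adjusted p of 0.0409 in the authors' deposited table. On polysomes it was smaller in size, -0.25 (SE 0.17), with an adjusted p of 0.385 in the authors' deposited table. The difference between them, 0.53 (SE 0.30), had an unadjusted p of 0.0756 by a normal test with independent errors. With an error correlation of 0.5 its unadjusted p was under 0.05, and it did not pass after adjustment. The 2 fractions were therefore not shown to differ. The gene spans 6634168 to 6701924 on the minus strand of chromosome 1. The mitochondria of the gradient samples had been spun out before RNA was taken, per the labels' protocol, and what that removed of mRNAs held at their surface was not tested.

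DNAJA3, the matrix partner of the mitochondrial HSP70 HSPA9, was the highest mitochondrial member in whole cells at 0.57 (authors' deposited table, sign reversed). Its unshrunken changes were 0.23 (SE 0.14) in polysomes and 0.56 (SE 0.30) in cytoplasm, with both intervals spanning 0. DNAJC15 and DNAJC19 are J proteins of the import motor at the inner membrane, and the intervals of both span 0 in both fractions. DNAJC15 had 0.10 (SE 0.20) in polysomes and -0.02 (SE 0.23) in cytoplasm. DNAJC19 had 0.26 (SE 0.19) in polysomes and 0.02 (SE 0.27) in cytoplasm. DNAJC30, an inner membrane protein tied to oxidative phosphorylation, had -0.08 (SE 0.14) in polysomes and -0.14 (SE 0.21) in cytoplasm.

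Of the 4 members with no assigned compartment, DNAJC22 fell on polysomes. Its relative in Drosophila takes part in clathrin-mediated endocytosis. Its polysomal level with GC7 was 0.500 of that with vehicle, the largest drop of all members, with an unshrunken log2 interval of -1.56 to -0.44 and an adjusted p of 0.00944 in the authors' deposited table. In cytoplasm the unshrunken value was -0.79 with an SE of 0.68, and the authors' deposited table gives an adjusted p of 0.644. The mRNA was rare, with mean normalized counts of 82.9 in polysomes and 41.3 in cytoplasm. DNAJC4 was the highest of these 4 in whole cells at 0.56 with a p of 0.422, and DNAJC28 the lowest at -0.62 with a p of 0.155 (authors' deposited table, sign reversed). The gene of DNAJC22 spans 49346888 to 49357546 on the plus strand of chromosome 12. In the fractions DNAJC4 had 0.20 (SE 0.18) in polysomes and -0.25 (SE 0.23) in cytoplasm, and DNAJC28 0.31 in polysomes and 0.12 in cytoplasm, each with an interval that spans 0. DNAJC25 had -0.02 (SE 0.15) in polysomes and 0.20 (SE 0.17) in cytoplasm.

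Across the 3 comparisons, 15 of 39 members kept 1 sign throughout, 9 negative and 6 positive. Because the whole-cell sign was reversed to match the fractions, agreement with them is in part set by that choice, for members and all genes alike. That is 23.1% negative and 15.4% positive, where 24.6% and 21.5% of the 13985 genes with whole-cell reads in both tables were so. The negative ones comprised 6 cytosolic or nuclear members with DNAJC5, DNAJC11 and DNAJC22, and the positive ones DNAJC12, the 3 ER members DNAJC10, DNAJC16 and DNAJB9, and the mitochondrial DNAJA3 and DNAJC19. Sizes were not compared between whole cells and fractions, because only the fraction values were shrunken. Whether the cytoplasmic and polysomal libraries came from the same dishes is not stated in the labels.

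**Figure D3:**
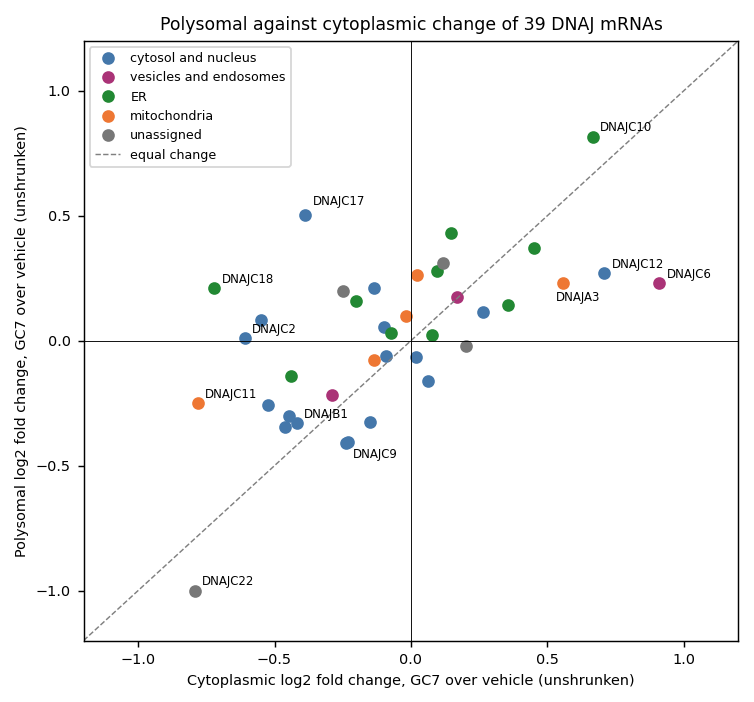
Unshrunken polysomal against cytoplasmic log2 fold change of the 39 DNAJ mRNAs, GC7 over vehicle, coloured by compartment; the dashed line marks equal change in both fractions. DNAJC10 (0.82 against 0.67) lies near the line, DNAJC22 is lowest on both axes, and DNAJC17 (0.50 against -0.39) and DNAJC18 (0.21 against -0.72) lie farthest above it.

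Translational efficiency was taken as the polysomal minus the cytoplasmic unshrunken log2 change and tested over all genes, with the errors of the fractions taken as independent. By that normal test with Benjamini-Hochberg adjustment, 0 of 39 members were past 0.05, as were 0 of the 15669 genes tested. At an unadjusted p under 0.05, 1 member stood out, against 2.14% (335) of all genes. That member was DNAJC17, at 0.89 (SE 0.40) and an unadjusted p of 0.0269. DNAJC18 had the highest difference, 0.93, with an SE of 0.48, and DNAJC6 the lowest, -0.68, with an SE of 0.86. For DNAJC10 the difference was 0.15 (95% interval -0.54 to 0.84), and for DNAJC22 it was -0.21 (-1.65 to 1.23). For DNAJB1 it was 0.09 (-0.35 to 0.53). The called polysomal changes were therefore not shown to exceed those of the cytoplasm. The 2.14% of all genes with a p under 0.05 is a share below that threshold itself. With independent errors the test was thus strict and could miss differences. With an error correlation of 0.5 between the fractions, 20 genes and 0 members were called, and 6 of 39 members and 1355 of the 15669 genes had an unadjusted p under 0.05. Those 6 were DNAJB12, DNAJC2, DNAJC4, DNAJC11, DNAJC17 and DNAJC18.

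Several of the HSP70s that these co-chaperones serve changed. Of 11 measured HSP70 genes, the adjusted p of the authors' deposited table called 3 higher and 2 lower in polysomes, and 1 higher and 1 lower in cytoplasm. Of all genes, 5.61% were called higher and 5.48% lower in polysomes, and 4.24% in either direction in cytoplasm. The HSP70 genes were chosen with results known and were not tested as a list. The ER partner HSPA5 had deposited log2 changes of 0.56 in polysomes and 0.72 in cytoplasm, both past the threshold, in the authors' deposited table. The mitochondrial HSPA9 had 1.29 in polysomes (adjusted p 4.56e-07) and 0.09 in cytoplasm (adjusted p 0.643) in the authors' deposited table. HSPA13, a microsomal relative, had 0.99 on polysomes (authors' deposited table). The main cytosolic partner HSPA8 was lower in polysomes, at -0.45 (adjusted p 0.0466), in the authors' deposited table. HSPA14, the partner of DNAJC2, was lower in both, at -0.60 in polysomes and -0.52 in cytoplasm in the authors' deposited table. In whole cells HSPA6, a strictly heat-inducible HSP70, had -1.27 and an unadjusted p of 0.0259 (authors' deposited table, sign reversed).

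Partners and co-chaperones of 1 compartment were not always called together. DNAJC10 was called higher in polysomes with HSPA5, whereas no mitochondrial co-chaperone was called there beside HSPA9. Among J proteins with other names, 4 of 6 were measured and 1 was called: SEC63, the J protein of the ER translocon, was higher in polysomes at 0.75 (adjusted p 0.00104) in the authors' deposited table. Of 18 nucleotide exchange factors and HSP70 regulators, 2 were higher and 2 lower on polysomes by the authors' deposited table. Of all genes, 5.61% were called higher and 5.48% lower there. The ER exchange factors HYOU1 and SIL1 each had 0.63, and the cytosolic BAG1 had -0.46 and SGTA -0.35, on polysomes (authors' deposited table). In cytoplasm SGTA was the 1 called, at -0.61 (adjusted p 0.00511) in the authors' deposited table, where 1.95% of all genes were lower. HSPH1, a cytosolic exchange factor, had -1.23 and an unadjusted p of 0.0251 in whole cells (authors' deposited table, sign reversed). None of the 3 measured heat shock factors was called in either fraction, with adjusted p from 0.333 upwards in cytoplasm and from 0.551 upwards in polysomes in the authors' deposited table.

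Promoters were searched for motifs of the heat shock, ER stress and E2F factors, since the cytosolic and ER members had polysomal medians of opposite sign. RefSeq (GRCh38.p14) gave promoters for 36 of the 39 members among 27305, and the 250 bases before the start were searched on both strands. Only 1 promoter was kept per symbol, so other starts of a gene were not searched. The windows of DNAJB1 and DNAJB6 lie inside the GENCODE spans of their genes, so for these 2 a start farther upstream was not covered, nor was any start farther downstream. The 3-unit heat shock element, GAANNTTC followed by NN and GAA, was found in 1 member, DNAJB6, 2.78% of members against 0.439% of all promoters and 0.350% of the 11138 promoters of measured genes. The shorter GAANNTTC, which makes up its first 2 units, was found in DNAJA1 and DNAJB6, 5.56% against 5.85% of all and 4.08% of measured promoters. The ER stress element, CCAAT and CCACG 9 bases apart, was found in 0 members, 0.0806% of all and 0.126% of measured promoters. TGATGNAA, the C/EBP-ATF element, was found in 0 members, 3.19% of all and 1.42% of measured promoters. CCAAT alone, which opens the ER stress element, was in 14 members, 38.9% against 33.0% of all and 34.7% of measured promoters. TTTCCCGC, an E2F motif, was in 0 members, 1.42% of all and 2.24% of measured promoters. A match is a description of letters, not a site or a cause, and no match says only that these letters are not in this window. Shown are the searched windows of DNAJC10, which rose in polysomes, and of DNAJB1 and DNAJC9, the cytosolic or nuclear members that fell there. That of DNAJB6, which holds the heat shock element, is shown with them. All run 5′ to 3′ in the gene's direction, with CCAAT (or its complement ATTGG) or the heat shock element in capitals.

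DNAJC10, chr2:182716007-182716256, plus strand: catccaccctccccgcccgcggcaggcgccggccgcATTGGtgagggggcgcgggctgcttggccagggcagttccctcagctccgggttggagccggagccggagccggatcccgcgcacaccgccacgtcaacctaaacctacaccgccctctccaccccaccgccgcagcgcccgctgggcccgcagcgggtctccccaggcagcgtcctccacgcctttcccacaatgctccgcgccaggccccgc
DNAJB1, chr19:14529272-14529521, minus strand: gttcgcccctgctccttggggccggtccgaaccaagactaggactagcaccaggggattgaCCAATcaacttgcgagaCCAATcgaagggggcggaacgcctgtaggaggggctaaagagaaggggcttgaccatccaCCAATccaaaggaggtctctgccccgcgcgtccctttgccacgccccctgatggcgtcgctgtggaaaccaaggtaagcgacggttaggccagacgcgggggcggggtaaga
DNAJC9, chr10:73247256-73247505, minus strand: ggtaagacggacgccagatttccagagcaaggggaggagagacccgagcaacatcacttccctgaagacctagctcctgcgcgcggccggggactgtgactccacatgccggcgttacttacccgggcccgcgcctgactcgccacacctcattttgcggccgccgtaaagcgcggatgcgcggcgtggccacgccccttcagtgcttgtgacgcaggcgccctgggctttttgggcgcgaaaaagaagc
DNAJB6, chr7:157336754-157337003, plus strand: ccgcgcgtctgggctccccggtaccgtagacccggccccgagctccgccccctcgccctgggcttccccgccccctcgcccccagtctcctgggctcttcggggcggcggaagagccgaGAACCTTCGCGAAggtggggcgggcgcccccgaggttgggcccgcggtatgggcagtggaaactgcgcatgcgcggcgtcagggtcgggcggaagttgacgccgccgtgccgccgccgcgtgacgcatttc

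DNAJC10 had 1 CCAAT match and DNAJB1 had 3, and DNAJC9 had 0. DNAJB6, the 1 member with the longer heat shock element in its searched window, was near 0 in all 3 comparisons. Its whole-cell value was -0.14 (authors' deposited table, sign reversed). A link between motif and response was not tested.

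Proline runs in the coding sequence were counted, since eIF5A is known to help ribosomes past consecutive prolines. A run of 3 or more proline codons was present in 7 of 39 members, 17.9%, and in 26.3% of measured genes. The median unshrunken polysomal change was 0.17 in the 7 members with a run and 0.04 in the 32 without, against -0.02 and -0.02 in all genes with and without a run. The median translational efficiency was 0.18 with and 0.10 without a run in members, and 0.05 and 0.00 in all genes. The median coding length of the members was 1083 bases against 1404 in all measured genes, with a median GC content of 46.4% against 52.7%. Across the 39 members, Spearman's rho between coding length and the unshrunken polysomal change was 0.17, and across all genes 0.16, where genes of 1 table share the libraries and are no independent replicates.

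Over all libraries together, members differed in how far their mRNA lay on heavy polysomes. The measure was the log2 ratio of a gene's share of polysomal counts to its share of cytoplasmic counts, with a median of 0.35 over all 15747 genes. DNAJA3 (1.54) and DNAJC6 (1.51) were the highest, above 98.7% and 98.5% of all genes, and DNAJC14 (1.08) came next. DNAJC2 was the lowest at -1.04, above only 1.56% of all genes, followed by DNAJC1 at -0.61. DNAJB11 (-0.41) stood low as well, whereas the other ER member DNAJB9 stood high (0.79). DNAJC2 and DNAJC1, the lowest pair, both code for proteins that contact ribosomes, a trait seen after ranking and not tested. The endosomal DNAJC13 was next lowest at -0.44, and DNAJC21, needed for ribosome maturation, had 0.03. The median percentile by compartment was 68.4 on vesicles and endosomes (3 members), 46.3 in mitochondria, 45.9 in the ER, 45.2 in the unassigned members and 38.7 in cytosol and nucleus. The 2 treatments cannot be separated in this ratio, because the deposited mean counts cover both.

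**Figure D4:**
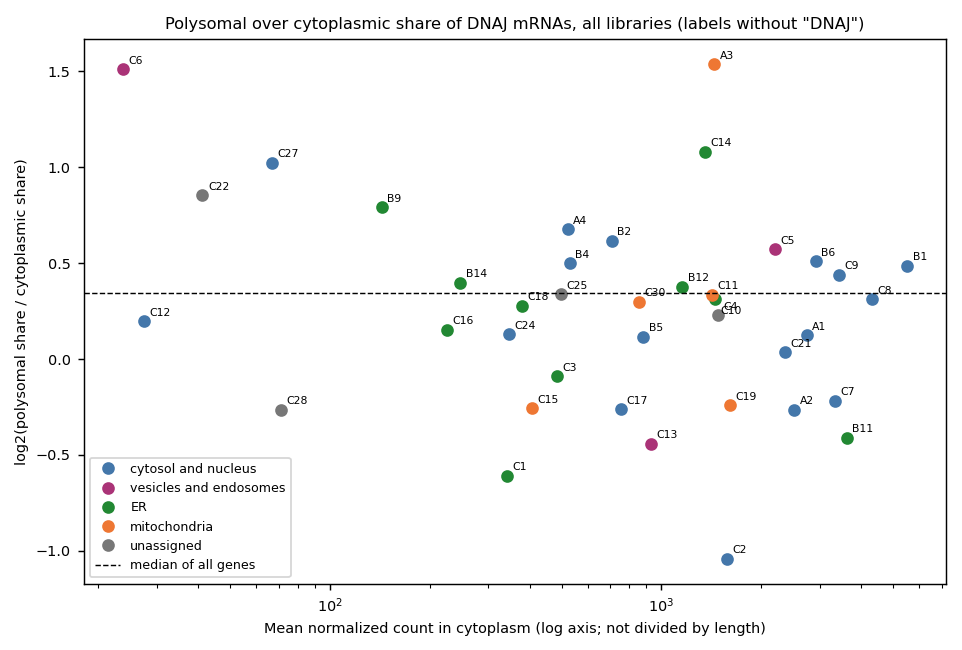
Log2 ratio of polysomal to cytoplasmic share of counts for each DNAJ mRNA over all libraries, against its mean normalized count in cytoplasm on a log axis, coloured by compartment. The dashed line is the median of all genes (0.35); DNAJA3 (1.54) and DNAJC6 (1.51) lie highest and DNAJC2 (-1.04) lowest.

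Some members share sequence or ground with other genes. The spans of 19 of the 39 members overlap a gene on the opposite strand in GENCODE 44, among them DNAJB1 with TECR, DNAJC9 with FAM149B1, DNAJC11 with THAP3, and DNAJC2 with PMPCB and PSMC2. Whether the counting used strand is not given in the sources used here, so reads of these pairs may not be told apart. Annotated pseudogenes exist for 8 members, DNAJB1 with 2 of them, which makes the split of its reads uncertain. The whole-cell data hold 4 rows that are numbered copies of a member symbol, left out here. Of these DNAJC8_1 had -1.06 and a p of 0.0423 (authors' deposited table, sign reversed), whereas DNAJC8 itself had 0.07 and a p of 0.870.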

How the data were processed

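Groups came from the labels. The submitters' processing notes name the build GRCh38 and the tools Salmon 1.4.0 and STAR 2.7.8a, without their role or order. Per the file headers, the authors' deposited fraction table gives a mean normalized count per gene (a score scaled by the authors, over both treatments) and, for cytoplasm and for polysomes, log2 fold changes and p-values, raw and adjusted. The SE of each fold change is a score column on the log2 scale, made by the authors. The deposited whole-cell file holds p-values and fold changes read as log2. The numerator is not stated. The category "UP" of 207 genes was taken to mean higher with GC7. The whole-cell sign was reversed, because as deposited it correlated negatively across 14103 genes with cytoplasm (Spearman -0.28) and polysomes (-0.37). Depth is unknown, and planned count tests could not be run.

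Fraction values are shrunken. They were unshrunken with a Cauchy prior of scale 0.195 (cytoplasm) or 0.205 (polysomes) on the natural log, fitted to the deposited p-values, and the z matched within 0.1 for 97.4% and 99.5% of genes. In the test of polysomal minus cytoplasmic change 78 genes off by over 0.5 were left out. Intervals are at 95%. Levels per kilobase use the canonical transcript in GENCODE 44. Tools were Python 3.11.15, numpy 2.4.6, pandas 2.3.3 and scipy 1.17.1. All members were accounted for. Those called in a comparison, and the extremes of each compartment, were named by rule, with called genes of other lists, at most 6 a list by smallest p. Members and lists were chosen with earlier results of these data known. A marker list of a further cell type is not reported here.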

Additional observations from a re-analysis of the deposited data

How the results depend on the processing

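The alternatives for calls changed thresholds, adjustments or filters and kept each log2 value, so they test the calls and not their direction. At an adjusted p under 0.01, 1 polysomal call (DNAJC22) and 0 cytoplasmic calls were left, and with the authors' fold minimum of 1 on the log2 scale 0 polysomal and 0 cytoplasmic calls. Among genes with a mean normalized count of 50 or more, 5 members were called in polysomes, DNAJA4 besides the 4. The whole-cell call of DNAJC2 gave way to 0 calls at an unadjusted p under 0.01, and to 0 after Benjamini-Hochberg adjustment over all genes or over those in both tables. Translational efficiency gave 0 called members in all 4 settings, with unadjusted counts at an error correlation of 0.5 of 6 members and 1355 genes, against 1 and 335 at none. Counting DNAJC4 and DNAJC28 as mitochondrial gave a mitochondrial polysomal median of 0.10 in place of 0.05. Unshrinking keeps each sign, and the filter on low counts removed no ER or mitochondrial member, so the sign of most medians could not turn.

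No paired analysis was possible because the tables hold comparisons and no values per library, and for the same reason leaving out single libraries was not run. The recovered errors rest on the fitted prior, and the independence of the fractions was not tested. Mean counts under 50 in a fraction (3 members) limit DNAJC6, DNAJC12 and DNAJC22.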
